A study of Mus musculus with 661 samples.

Results

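The endothelial adhesion and hemostasis genes described here are *Vwf*, *Selp*, *Sele*, *Icam1*, *Icam2*, *Vcam1*, *Thbd*, *Procr*, *F8* and *Tfpi*, 10 of the 45808 genes counted in the table. They were chosen by their function and by their levels in these same cells, with earlier results known, so their levels are given as a description with no test. Single stromal cells were sorted from bone chips (endosteum) and flushed central marrow of C57BL/6 wild type mice, either young (about 2 months) or old (about 24 months), and sequenced one cell per well. The study's methods give wider age ranges over all its experiments. Arteriolar endothelial cells (AEC, CD31+/Sca-1hi/CD105lo) and the mesenchymal MSC-S (CD31-/Sca-1+/CD51+), mOPr (Sca-1-/CD51+/PDGFRα+/LepR-) and OPr (PDGFRα-/LepR-) came from endosteum, whereas sinusoidal endothelial cells (SEC, CD31+/Sca-1lo/CD105hi) and MSC-L (PDGFRα+/LepR+) came from central marrow. Each gate also took Ter119- and CD45- cells. The labels name no treatment, and none of the 10 genes encodes a protein used in these gates.

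The table held 661 cells, of which 336 were young and 325 old. AEC comprised 84 young and 82 old cells, SEC 70 and 71, MSC-L 53 and 58, MSC-S 59 and 59, OPr 44 and 29, and mOPr 26 and 26. Total counts per cell ran from 58034 to 1503374 with a median of 425611. No label tied a cell to a mouse, so each population at each age was treated as 1 sample and no difference was tested. Levels are counts summed over the cells of a group and scaled to the nuclear gene counts of that group as CPM, with 95% exact Poisson intervals in parentheses, and a cell was said to carry a gene at 10 CPM or more, with 95% exact Clopper-Pearson intervals for the share of cells. The intervals of levels and ratios treat reads as independent, which amplified reads without molecular identifiers are not, so they are too narrow even for counting error. They do not cover the spread between cells. No interval given here covers differences between mice. The median cell held 417873 counts in young AEC, 424026 in old AEC, 319565 in young SEC and 306315 in old SEC. Library numbers in the labels fell into 3 ranges. AEC were found in each range, with 20, 40 and 24 young and 20, 39 and 23 old cells, while SEC were found in range 3 alone, so ratios of AEC to SEC are also given within range 3.

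Endothelium holds blood fluid and controls which leukocytes leave it, and these genes encode proteins that do both. Von Willebrand factor (*Vwf*) and P-selectin (*Selp*) are stored in Weibel-Palade bodies and released on activation, E-selectin (*Sele*) and VCAM-1 (*Vcam1*) are classically induced by inflammatory cytokines but are constitutively present on marrow sinusoids, where they take part in homing of blood progenitors, and ICAM-1 and ICAM-2 bind leukocyte integrins. Thrombomodulin (*Thbd*) and the endothelial protein C receptor (*Procr*) turn thrombin toward activation of protein C, tissue factor pathway inhibitor (*Tfpi*) blocks the initiation of clotting, and factor VIII (*F8*) is a clotting cofactor that circulates bound to von Willebrand factor.

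Endothelial markers were checked first. The summed level of 12 endothelial markers was 12467 CPM in young AEC, 12336 in old AEC, 10548 in young SEC and 11986 in old SEC, with all 12 at 10 CPM or more in each group and *Cldn5* the most abundant. In the mesenchymal groups the same sum lay between 14.04 CPM in old MSC-S and 121 CPM in young mOPr. The summed level of 10 sinusoidal markers was 23742 CPM in young SEC and 2642 CPM in young AEC, and that of 10 arterial markers was 501 and 4261 CPM, so the sorted populations carried the markers of their names. *Ly6a*, which encodes the Sca-1 of the gates, was the most abundant arterial marker, at 208 CPM in young SEC and 1494 CPM in young AEC. That part of the arterial sum was thus set by the sort. Old SEC differed from young SEC in both sums, with 18653 CPM of sinusoidal and 1737 CPM of arterial markers.

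**Figure D1:**
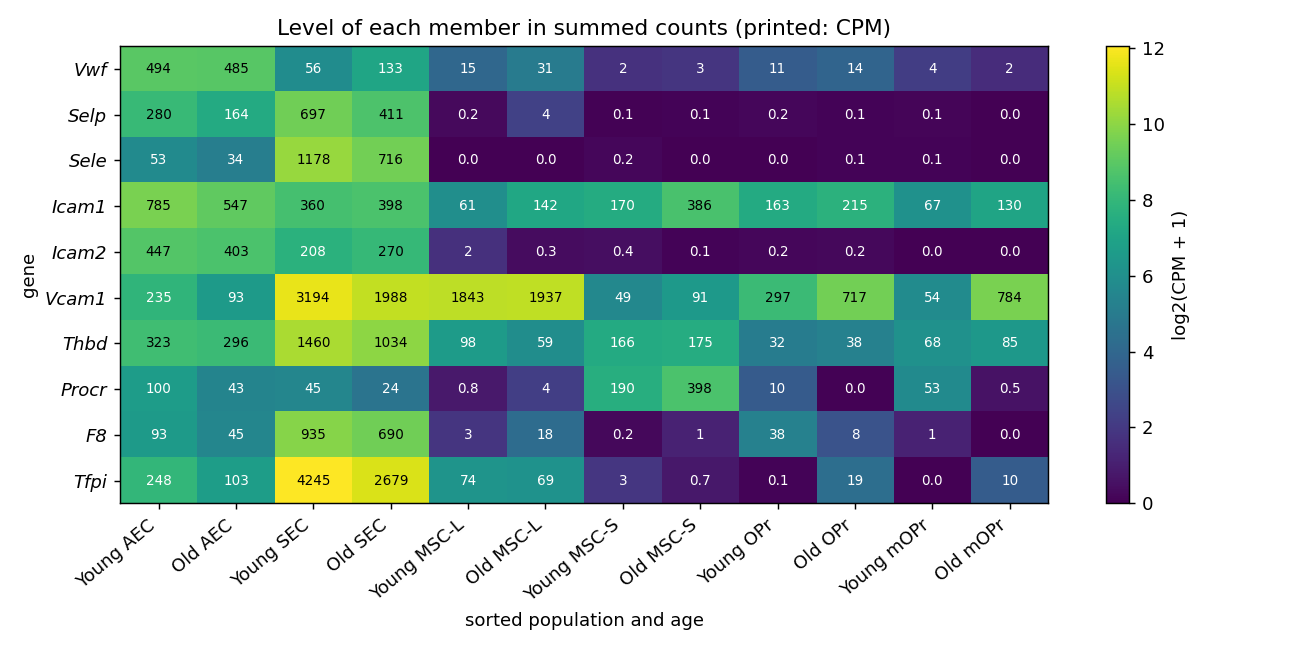
Level of each gene (vertical axis) in each sorted population and age (horizontal axis), with color as log2(CPM + 1) of summed counts and CPM printed in each cell. *Sele*, *Selp* and *Icam2* were near 0 outside the endothelial groups, whereas *Vcam1* reached 1843 CPM in young MSC-L and *Procr* 398 CPM in old MSC-S.

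Among the genes whose products act in platelet capture, *Vwf* was highest in AEC. Its level was 494 CPM (487 to 502) in young AEC and 485 CPM (478 to 493) in old AEC, against 56.3 CPM (53.2 to 59.5) in young SEC and 133 CPM (128 to 138) in old SEC. Single cells spread widely, with a median of 10.6 and a highest cell of 4879.9 CPM in young AEC and 38.05 and 5153 CPM in old AEC. The share of cells carrying *Vwf* was 51.2% (40.04 to 62.3%) in young AEC and 69.5% (58.4 to 79.2%) in old AEC. In young SEC, 1 cell held 78.4% of all *Vwf* counts, and the level without it was 12.4 CPM. *Vwf* is a guide gene of the study's clustering, and by cluster it was 792 CPM in E3 and 364 CPM in E4 (both AEC-like), 403 in E5 (arterial), 129 in E6 (transition) and 41.6 in E7 (SEC-like).

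*Selp*, which shares the Weibel-Palade body with *Vwf*, showed the opposite order. It was 697 CPM (686 to 708) in young SEC and 411 CPM (403 to 420.0) in old SEC, against 280.0 CPM (274 to 286) in young AEC and 164 CPM (160.2 to 169) in old AEC. Nearly every young SEC carried it, 95.7% (87.98 to 99.1%), with a median cell at 619 CPM, whereas 19.05% (11.3 to 29.1%) of young and 7.32% (2.73 to 15.2%) of old AEC did and the median AEC held 0 CPM at both ages. The AEC level thus rested on few cells: 1 old AEC, in cluster E6, held 79.9% of the group's counts, and without it the level was 33.7 CPM. *F8*, a cofactor carried by von Willebrand factor in plasma, was likewise a gene of SEC and not of the *Vwf*-high AEC. It reached 935 CPM (922 to 948) in young and 689.8 CPM (679 to 701) in old SEC and was carried by 100% and 78.9% of them, against 92.6 CPM (89.5 to 95.9) and 44.9 CPM (42.7 to 47.2) in young and old AEC, carried by 22.6% and 12.2%. The most *Vwf* and the most *F8* were therefore measured in different sorted endothelial populations.

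Of the leukocyte adhesion genes, *Sele* and *Vcam1* were SEC genes. *Sele* was 1178 CPM (1164 to 1193) in young SEC and 716 CPM (705 to 728) in old SEC, and 52.8 CPM (50.4 to 55.3) and 34.1 CPM (32.2 to 36.1) in young and old AEC. It was carried by 97.1% of young and 60.6% of old SEC but by 10.7% and 2.44% of AEC, and 1 old AEC held 61.1% of that group's counts (the same cell that held most *Selp*). In young AEC 1 cell held 50.2%, and without the highest cell of each group the log2 ratio of young AEC to young SEC was -5.34 in place of -4.45. *Vcam1* was 3194 CPM (3170.4 to 3218) in young and 1988 CPM (1969 to 2007) in old SEC, with median cells at 2938 and 1847 CPM, against 235 CPM (230.3 to 240.5) and 92.9 CPM (89.8 to 96.2) in young and old AEC. *Vcam1* was not confined to endothelium, since MSC-L held 1843 CPM (1826 to 1861) when young and 1937 CPM (1917 to 1956) when old, and 98.1% and 96.6% of these cells carried it. Mesenchymal transcripts were also present in SEC, where 10 young and 5 old cells carried at least 7 of 10 mesenchymal markers. Without those cells the log2 ratio of *Vcam1* in young AEC over young SEC was -4.11, beside -3.76 with them.

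*Icam2*, the constitutive integrin ligand, was spread over endothelial cells of each group. It was 447 CPM (440.5 to 455) in young AEC, 403 CPM (396 to 409.8) in old AEC, 208 CPM (202 to 215) in young SEC and 270.3 CPM (263 to 277) in old SEC, was carried by 86.9%, 82.9%, 67.1% and 74.6% of cells, and no single cell held more than 7.22% of a group's counts. Outside endothelium its highest level was 2.24 CPM in young MSC-L, all from 1 cell. *Icam1*, the cytokine-inducible relative, was 785 CPM (776 to 794) and 547 CPM (539 to 555) in young and old AEC and 360.4 CPM (352 to 368) and 398 CPM (389 to 407) in young and old SEC. Its cells were uneven, with a median of 33.9 and a highest cell of 7049.7 CPM in young AEC. The median cell held 158 CPM in young SEC, 26.2 CPM in old AEC and 44.2 CPM in old SEC. Median cells were thus higher in SEC at both ages, the opposite order to the summed levels. *Icam1* was carried by 55.95% of young and 56.1% of old AEC, and by 78.6% of young and 60.6% of old SEC. Among clusters *Icam1*, which is not a guide gene, was 985 CPM in E4, 665 in E6, 512 in E3, 474 in E7 and 96.6 in E5. It was also detected in each mesenchymal group, from 61.3 CPM in young MSC-L to 386 CPM in old MSC-S.

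The anticoagulant genes followed no single pattern. *Tfpi* had the highest level per kilobase of exon of the 10 genes in SEC, 777 CPM per kilobase in young and 490.4 in old SEC. Its summed level was 4245 CPM (4218 to 4272) in young and 2679 CPM (2657 to 2701) in old SEC, against 248 CPM (243 to 254) and 103 CPM (99.9 to 107) in young and old AEC, and 100% of young and 94.4% of old SEC carried it. *Thbd*, not a guide gene, was higher in SEC but present in most endothelial cells. It was 1460.3 CPM (1444 to 1476) and 1034 CPM (1019.7 to 1047) in young and old SEC and 323 CPM (317 to 329) and 296 CPM (290.1 to 302) in young and old AEC, carried by 98.6%, 91.5%, 78.6% and 85.4% of cells. *Procr* had its highest level outside endothelium. It was 189.9 CPM (185 to 195) in young and 398 CPM (392 to 405) in old MSC-S, carried by 44.1% (31.2 to 57.6%) and 67.8% (54.4 to 79.4%) of these cells, against 99.6 CPM (96.3 to 103) in young AEC, the highest of the endothelial groups. In MSC-S the log2 ratio of old over young was 1.17 in range 1 and 0.99 in range 2. The study reports cluster M9, among the MSC-S-like clusters, as made up of old cells alone. The part of clusters in this age difference was not tested.

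**Figure D2:**
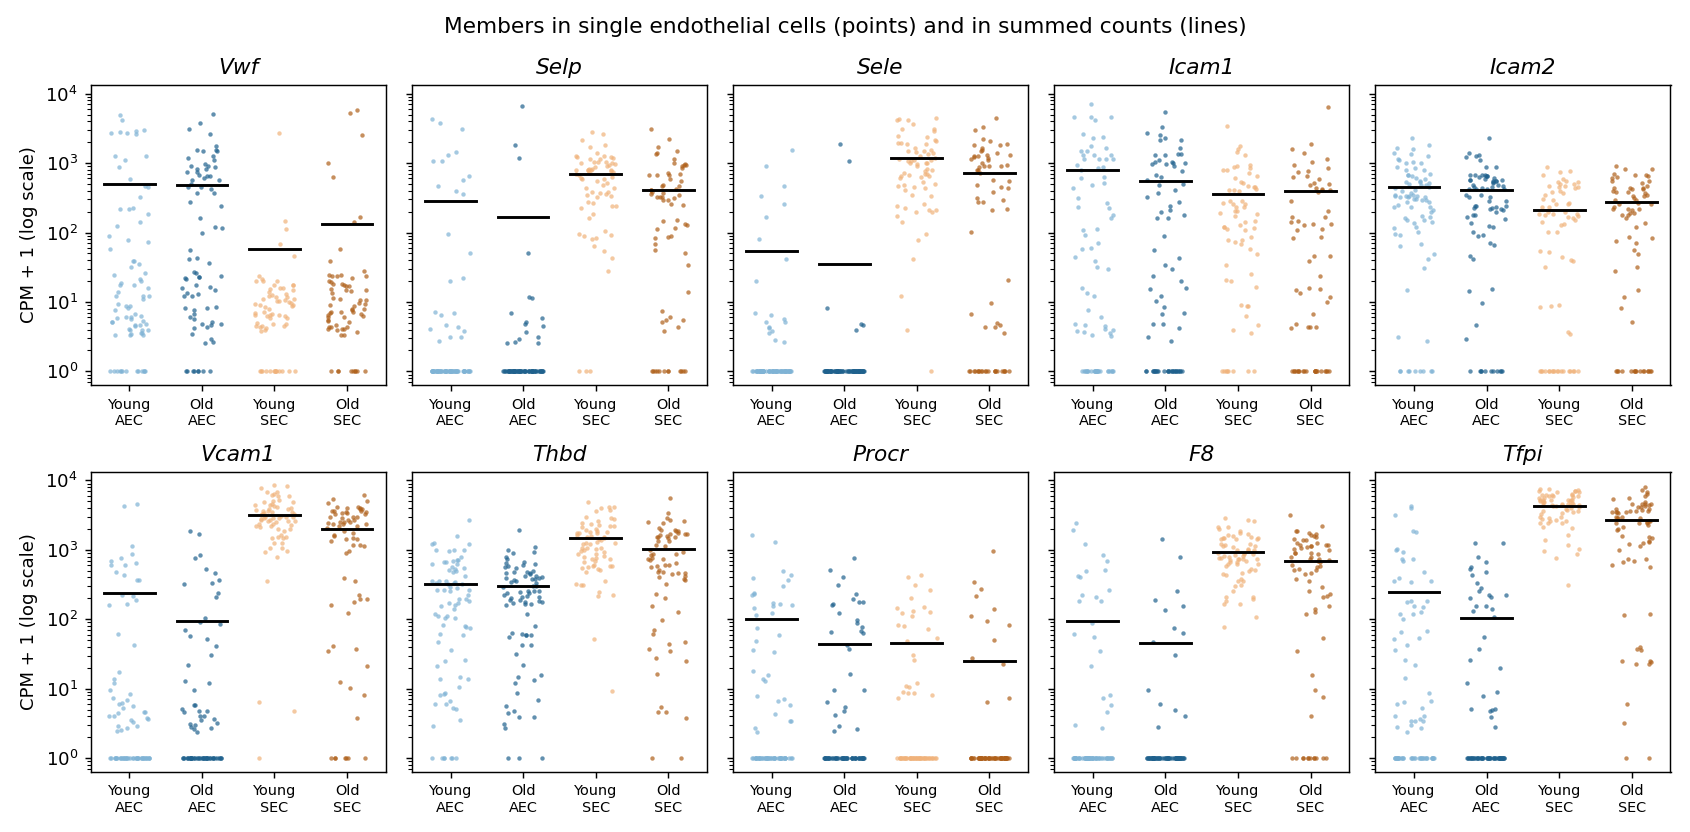
CPM + 1 on a log axis for each gene in each endothelial cell (points, 84 young AEC, 82 old AEC, 70 young SEC and 71 old SEC), with horizontal lines at the CPM + 1 of summed counts. The median AEC lay at 0 CPM for *Sele*, *Selp* and *F8* at both ages, and 1 young SEC with 2685 CPM of *Vwf* lay far above the median of 7.24 CPM.

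In young mice the 10 genes were each at least 2-fold apart between AEC and SEC, 4 higher in AEC and 6 higher in SEC, where 36.5% of 13766 genes tested in the same way (at least 100 counts in at least 5 cells) were past that fold on the log2(CPM + 1) scale. Because the genes were chosen with this contrast known, nothing is read from that count. The ratio of young AEC to young SEC was 8.78 (8.29 to 9.31) for *Vwf* (log2 ratio 3.11, and 4.94 without the highest cell of each group), 2.22 (2.06 to 2.38) for *Procr*, 2.18 (2.12 to 2.23) for *Icam1* and 2.15 (2.08 to 2.22) for *Icam2*. On the log2 scale it was -4.45 for *Sele*, -4.09 for *Tfpi*, -3.76 for *Vcam1*, -3.32 for *F8*, -2.17 for *Thbd* and -1.31 for *Selp*. Within range 3 alone these 6 genes stayed past the fold in the same direction, with *Sele* at -4.72, *Tfpi* at -3.16, *Vcam1* at -4.88, *F8* at -1.55, *Thbd* at -2.24 and *Selp* at -2.49. *Vwf* was 2.56 there, whereas *Icam1* turned to -0.13, *Icam2* was 0.89 and *Procr* 0.07. The differences in *Icam1* and *Procr* thus did not hold within the range that holds the SEC, and *Icam2* fell short of 2-fold. The young AEC of range 3 also differed in cluster. Of young AEC, 13 of 20 in range 1, 30 of 40 in range 2 and 7 of 24 in range 3 lay in AEC-like clusters. Library range and cluster therefore cannot be told apart in the range 3 ratios. Over all ranges *Icam1* was also short of 2-fold with the mean CPM of cells (0.88), size factors (0.74) and thinning (0.90). *Procr* was short of it with size factors (0.90).

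In old mice 7 of the 10 genes were at least 2-fold apart between AEC and SEC, against 36.1% of 13778 genes tested. The same 6 genes were higher in SEC, with log2 ratios of AEC to SEC from -4.68 for *Tfpi* to -1.32 for *Selp* (-3.37 without the highest cell of each group and -2.54 in range 3), and *Vwf* was higher in AEC at 1.86. With size factors the ratio of *Vwf* was 0.12, under 2-fold, so this gene was past the fold under some ways of scaling cells and not others. Over all settings its log2 ratio ran from 0.12 to 4.22. Part of the old SEC value came from 7 cells with at least 3 platelet markers, described below. *Icam1*, *Icam2* and *Procr* were 0.46, 0.57 and 0.80. Within range 3 the log2 ratio of *Vwf* was 2.15 and that of *Procr* 2.08, past the fold. Over the 10 genes the median log2 ratio was -1.74 in young and -1.56 in old mice, beside 0.06 and -0.04 over the genes tested. The genes were chosen with their levels in these cells known, so nothing is read from the count of 7 or from these medians.

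With age, AEC had lower levels of part of the set, though the number of genes depended on how cells were scaled. In old against young AEC 4 of the 10 genes were at least 2-fold lower and none was 2-fold higher, where 21.1% of 14042 genes tested were past the fold in either direction. These were *Vcam1* with a log2 ratio of -1.33, *Tfpi* with -1.26, *Procr* with -1.20 and *F8* with -1.03, from the levels given above. With the mean CPM of single cells, size factors or thinning the count was 2, near the share of all genes. *Vcam1* and *Procr* fell short of 2-fold under each of these. Over all AEC the ratios nearest 0 were -0.03 for *Vwf*, -0.13 for *Thbd* and -0.15 for *Icam2*. The library-number ranges did not give 1 picture, and *Vwf* was -0.64, 0.27 and 0.83 in ranges 1, 2 and 3. *Tfpi* was lower in old AEC in each range, at -1.36, -1.04 and -1.92 in ranges 1, 2 and 3, and *Vcam1* was -1.39, -0.86 and -1.73. *F8* was 0.41 in range 2 and -5.01 in range 3, where young AEC held 319 CPM against 18.8 CPM in range 1. *Procr* was -2.21 in range 2 and 1.13 in range 3. *Sele* and *Icam1* also changed sign in range 3, at 0.71 and 0.28 beside -0.62 and -0.52 over all AEC. The 10 sinusoidal markers moved alongside, with a sum of 2642 CPM in young and 1490.4 CPM in old AEC (9 and 7 of them at 10 CPM or more, *Il6st* the most abundant). Of 10 pericyte markers 3 were at least 2-fold lower and 0 higher in old AEC (median log2 ratio -0.66). Of 10 mesenchymal markers 4 were higher and 2 lower (0.86). The part of these markers in the differences was not tested.

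**Figure D3:**
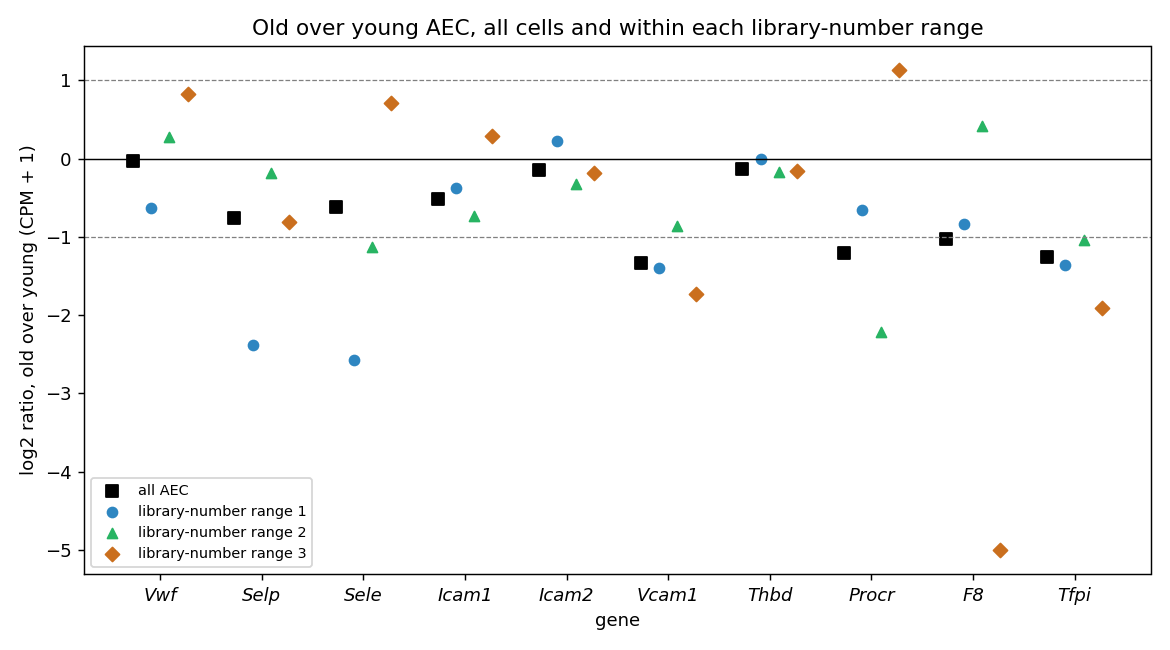
Log2 ratio of old over young AEC on the CPM + 1 scale (vertical axis) for each gene (horizontal axis), over all AEC (squares) and within library-number ranges 1 (circles), 2 (triangles) and 3 (diamonds), with dashed lines at 2-fold. *Tfpi* lay below -1 in each range, while *Procr* ran from -2.21 in range 2 to 1.13 in range 3.

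Some of these values also turned on few cells. In young AEC 1 cell of cluster E3 held 42.03% of *Vcam1* counts, and leaving out the highest cell of each group put the log2 ratio at -0.83. Of the young AEC, 1 cell in SEC-like E7 held 22.8% of *F8* counts and 1 cell in E6 held 25.1% of *Tfpi* counts. Without the highest cells *F8* was -1.24 and *Tfpi* -1.02. Averaging the CPM of single cells, so that deep cells weigh no more than shallow ones, put the log2 ratio of *Procr* at -0.82 and that of *Vcam1* just short of 2-fold. For *Selp* the highest cell worked the other way, and without it the ratio was -2.47 in place of -0.76.

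Among the cells of E3 and E4 (AEC-like), with 50 young and 69 old cells, 4 of the 10 genes were at least 2-fold lower in old cells, beside 23.4% of 13043 genes tested. The young cells were all sorted as AEC, whereas 2 old cells of E3 and 6 of E4 were sorted as SEC, so the ages also differ in sorted source. *Selp* was 355 CPM in young and 38.3 CPM in old cells, *Sele* 61.8 and 15.2, *Vcam1* 235 and 65.9, and *Procr* 118 and 35.03. Of these *Procr* alone is not an endothelial guide gene. *F8* and *Tfpi*, lower over all old AEC, had log2 ratios of 0.55 and -0.17 within these clusters, from -1.34 and -1.84 in range 1 to 3.80 and 1.18 in range 3. Range 3, with 7 young and 19 old AEC-like cells, gave *Selp*, *Sele* and *Vcam1* the opposite sign, at 2.19, 5.79 and 3.23. The old AEC-like cells sorted as SEC all lie in that range, so age and sorted source cannot be told apart there. *Procr* was -0.23, -2.06 and -1.01 in ranges 1, 2 and 3, so none of the 4 differences held past 2-fold in the same direction in each range. *Sele* fell short of 2-fold with the mean CPM of cells (-0.95), size factors (-0.95) and thinning (-0.97) but was -4.27 without the highest cell of each group, and *Vcam1* fell short without those cells (-0.83). Marker lists moved in the same cells, with 7 of 9 pericyte markers at least 2-fold lower and 1 higher in old cells (median log2 ratio -1.50), 4 of 9 sinusoidal markers lower (-0.72), 3 of 6 platelet markers higher (0.91) and 5 of 10 mesenchymal markers higher (1.21). *Procr* was 248.7 CPM in the pericyte cluster E2, and the part of these markers in its difference was not tested.

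The number of genes past 2-fold with age was 1 in SEC and 4 in AEC, a contrast that was not tested. With the mean CPM of single cells or size factors it was 1 in SEC and 2 in AEC. After thinning each cell to 100000 counts it was 2 in SEC and 2 in AEC. In old against young SEC 1 of the 10 genes was past 2-fold, *Vwf*, beside 20.7% of 12982 genes tested. The genes that marked SEC were lower in old cells by less than 2-fold, with log2 ratios of -0.76 for *Selp*, -0.72 for *Sele*, -0.68 for *Vcam1*, -0.66 for *Tfpi*, -0.50 for *Thbd* and -0.44 for *F8*. The share of cells carrying *Sele* was 97.1% (90.1 to 99.7%) in young and 60.6% (48.3 to 71.97%) in old SEC. By cluster, old SEC held 1008 CPM of *Sele* in their 44 cells of E7 and 68.9 CPM in their 12 cells of E6. All 6 genes were carried together by 64 of 70 young SEC and 42 of 71 old SEC.

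Part of the *Vwf* of old SEC lay in few cells that also carried platelet markers. The 10 megakaryocyte and platelet markers summed to 808 CPM in old SEC, with *Itga2b* the most abundant at 378 CPM and 9 of 10 at 10 CPM or more, and to 17.6 CPM in young SEC, where none reached 10 CPM and 3 were at 0. The 7 old SEC that carried at least 3 of these markers held 58.3% of *Vwf* counts, at 951 CPM, and the other 64 held 60.4 CPM. *Selp* was 143 CPM in these 7 cells and 435 CPM in the rest. Without them the log2 ratio of *Vwf* in old over young SEC was 0.10, and without every cell that carried any of the 10 markers it was -1.49, the opposite direction. The young value these ratios rest on came mostly from 1 cell, and leaving out the highest cell of each group gave 89.8 CPM in old and 12.4 CPM in young SEC, a log2 ratio of 2.76. The ratio was also larger with the mean CPM of cells, at 2.15, so its size depended on which cells were kept and how they were weighed. The largest holder of *Vwf* in old SEC carried all 10 platelet markers, and was placed in E5.

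Within the SEC-like cluster E7, with 61 young cells (2 of them sorted as AEC) and 44 old cells, *Vwf* was the gene past 2-fold, and in the other direction, beside 21.8% of 11595 genes tested. It was 64.9 CPM in young and 8.28 CPM in old cells, with 80.4% of the young counts in 1 cell, and leaving out the highest cell of each group put the log2 ratio at -0.63. The level of *Vwf* in SEC of either age thus rested on few cells. The other 9 genes had log2 ratios from -0.45 for *Selp* to 0.69 for *Icam1*, and *Sele*, *Selp*, *Vcam1*, *Thbd*, *F8* and *Tfpi* differed less there than over all sorted SEC, in a cluster that 5 of these 6 genes (not *Thbd*) helped to define. For *Icam1*, not a guide gene, E7 held 378 CPM in young and 612 CPM in old cells, carried by 78.7% and 79.5%.

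Among mesenchymal cells, MSC-L lie around sinusoids, and *Vcam1* is one of their guide genes. Old against young MSC-L left 6 of the 10 genes with enough counts, of which *Icam1* and *F8* were at least 2-fold higher in old cells, beside 25.4% of 13143 genes tested. *Icam1* was 61.3 CPM in young and 142 CPM in old cells, and *F8* 2.59 and 18.2 CPM. For *Icam1* the log2 ratio was 0.31 in range 1 and 1.59 in range 2, and without the highest cell of each group it was 0.99, short of 2-fold. *F8* was carried by 2 of 53 young and 5 of 58 old MSC-L, so its ratio rests on few cells. With 59 counts in young and 355 in old MSC-L, *F8* had enough counts to be compared only through the old cells. Its ratio and its place in the count are therefore not exact. *Vwf* in old MSC-L, 31.4 CPM against 15.4 CPM in young, came with platelet markers at 1255 CPM against 17.1 CPM, *Ppbp* the most abundant at 580.2 CPM. The 11 old MSC-L with at least 3 such markers held 55.6% of *Vwf* counts, and the other 47 held 16.00 CPM of *Vwf*. In young MSC-L 1 cell held 45.2% of *Vwf* counts, and without it the level was 8.63 CPM. The log2 ratio of *Vwf*, 0.98 as reported, was 1.32 without the highest cell of each group and 1.07 with the mean CPM of cells. It was 2.06 in range 1 and 0.66 in range 2. For *Selp*, 1 of those 11 cells alone held 77 of the 80 counts of the group. No *Sele* count was found in young or old MSC-L, an upper limit of 0.132 CPM in young and 0.154 CPM in old cells (3 counts).

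The endosteal mesenchymal cells were marked by *Procr* in MSC-S, where it is a guide gene, with 592 CPM in cluster M16, 376 in M7 and 352 in M9. *Thbd*, which acts with *Procr* in protein C activation, was 166 CPM in young and 175 CPM in old MSC-S, carried by 52.5% and 71.2% of cells. *Vcam1* was 54.4 CPM in young and 784 CPM in old mOPr, and 297 and 717 CPM in young and old OPr. In young OPr 1 cell held 62.04% of its counts. The log2 ratio of old over young OPr was 0.26 in range 1 and 8.29 in range 2. These sorted groups held different clusters at each age, since 2 of 26 young and 14 of 26 old mOPr lay in the MSC-L-like clusters M1 and M2, where *Vcam1* is a guide gene. Among mOPr of these clusters *Vcam1* was 1088 CPM in young and 1488 CPM in old cells, and among mOPr of clusters M3 to M5 2.03 and 1.52 CPM. Among OPr, 3 of 44 young and 10 of 29 old cells lay in M1 and M2, with 2859.7 and 1522 CPM of *Vcam1*, and OPr of M3 to M5 held 0.874 and 61.1 CPM. *Lepr*, whose protein was gated out of mOPr, was 144 and 1047 CPM in young and old mOPr. The part of the clusters and of *Lepr* in the differences of *Vcam1* was not tested. In old OPr, 8 cells that carried at least 7 of 15 blood cell markers held 86.4% of *Icam1* counts, of which 1 cell alone held 81.4% of the group's counts, and without it the level was 41.9 CPM in place of 215 CPM.

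Lists of other genes from the same systems are read beside the share of all genes past 2-fold between AEC and SEC, 36.5% in young and 36.1% in old cells. Markers of other cells differed too. In young cells 7 of 10 pericyte markers were at least 2-fold higher in AEC and 2 in SEC (median log2 ratio 3.59), and 7 of 10 mesenchymal markers were higher in SEC (-1.24). In old cells 10 of 10 platelet (-4.28) and 7 of 7 blood cell markers (-4.19) were higher in SEC. Their part in the counts below was not tested. Of the 30 genes of coagulation, its inhibitors and fibrinolysis, 24 were tested in young cells, with 9 at least 2-fold higher in AEC and 4 in SEC (median log2 ratio 0.44), and in old cells 9 and 8 of 26 (-0.03). *Plat*, encoding tissue plasminogen activator, was 204 CPM in young AEC and 0.456 CPM in young SEC. In the other direction, *Serpine2*, an inhibitor of thrombin, was 169 CPM in young AEC and 737 CPM in young SEC, and *Ptgs1*, a cyclooxygenase, 91.9 CPM in young AEC and 203 CPM in young SEC. *F2rl1* and *F5* had log2 ratios in young cells of 4.53 and -1.43, but 0.20 and -0.89 within range 3, short of 2-fold. Within range 3 the young ratio was 5.99 for *Plat*, -3.24 for *Serpine2* and -1.52 for *Ptgs1*.

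Of the 25 genes of leukocyte adhesion and endothelial junctions, 20 were tested in young cells, with 9 at least 2-fold higher in AEC and 2 in SEC (median log2 ratio 0.62), and in old cells 8 and 3 of 20 (0.31). The sialomucins *Podxl* and *Cd34* were 2328 CPM in young AEC and 80.9 CPM in young SEC, and 877 CPM in young AEC and 49.4 CPM in young SEC, and the junction gene *Jam2* was 679.7 CPM in young AEC and 21.3 CPM in young SEC. *Ackr1*, the atypical chemokine receptor of venules, was higher in SEC, at 224 CPM in young AEC and 1557 CPM in young SEC, as was *Pvrl2* with a log2 ratio of -2.10, though -0.75 within range 3. Within range 3 the young ratio was 4.30 for *Podxl*, 3.68 for *Cd34*, 5.00 for *Jam2* and -2.32 for *Ackr1*. Of the 16 genes of Weibel-Palade body contents and transport, 16 were tested in young cells, with 3 at least 2-fold higher in AEC and 2 in SEC (median log2 ratio 0.13), and in old cells 2 and 6 of 16 (0.04). The stored peptide gene *Edn1* was 177 CPM in young AEC and 1.41 CPM in young SEC, on the side of *Vwf*, with *Myrip*, a linker of these granules to actin, at 3.88, whereas *Cd63*, a membrane protein of the same granule, was 55.9 CPM in young AEC and 147 CPM in young SEC, on the side of *Selp*. Within range 3 the young ratio was 5.06 for *Edn1*, 1.91 for *Myrip* and -1.55 for *Cd63*.

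Of the 22 genes for receptors and transcription factors known to act on the set, 22 were tested in young cells, with 5 at least 2-fold higher in AEC and 2 in SEC (median log2 ratio 0.45), and in old cells 6 and 3 of 22 (0.38). *Klf4*, a flow-induced factor known to raise *Thbd*, was 679 CPM in young AEC and 206 CPM in young SEC, the opposite order to *Thbd*. *Irf1* was 1602 CPM in young AEC and 303 CPM in young SEC, *Tnfrsf1b* had a log2 ratio of 1.30 over all cells and 0.19 within range 3, and *Il6st*, also among the sinusoidal markers, was 1017 CPM in young AEC and 3948 CPM in young SEC. With age in AEC, at least 2-fold either way, coagulation genes were 1 higher and 4 lower of 25, adhesion genes 1 higher and 3 lower of 20, Weibel-Palade genes 0 higher and 3 lower of 16 and regulators 1 higher and 1 lower of 22, beside 21.1% of all genes. In SEC the same counts were 9 higher and 2 lower of 23, 5 higher and 1 lower of 20, 3 higher and 1 lower of 14 and 2 higher and 0 lower of 22, beside 20.7%. Markers of other cells moved in the same comparison, with 8 of 10 arterial (median log2 ratio 1.90), 5 of 8 pericyte (median log2 ratio 2.30), 8 of 8 platelet (median log2 ratio 4.60) and 6 of 7 blood cell markers (median log2 ratio 4.21) at least 2-fold higher in old SEC, and their part in these counts was not tested. Within range 3 the young ratio of AEC to SEC was 1.95 for *Klf4*, 2.14 for *Irf1* and -1.62 for *Il6st*.

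Over the 12 groups of population and age, the genes whose log2(CPM + 1) ran most like each member were found by Pearson correlation among 13236 genes. These values describe 12 groups, and no test is attached. The closest were *Fam167b* (0.999), *Naip5* (0.998), *Ubd* (0.996) for *Sele*, *Gpihbp1* (0.995), *Stox1* (0.994), *B3gnt3* (0.991) for *Selp*, and *Ptprb* (0.994), *Tie1* (0.994), *Ppp1r16b* (0.994) for *Icam2*. For *Vwf* they were *Fryl* (0.964), *Cd2ap* (0.959), *4931406P16Rik* (0.958), and for *Icam1* *Wdr92* (0.936), *Cacna1h* (0.931), *Nbeal2* (0.917). For *Vcam1* they were *Dclk2* (0.951), *Apoe* (0.941), *Cblb* (0.926), and for *Procr* *Tspan5* (0.962), *Gm9392* (0.934), *Dynlt3* (0.916). For *Thbd* they were *Il6st* (0.957), *Fam171a1* (0.942), *Gm15675* (0.942), for *F8* *Gmpr* (0.9497), *Stab1* (0.939), *Smad1* (0.935), and for *Tfpi* *Arl6ip1* (0.978), *Dgkz* (0.969), *Ugcg* (0.956).

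On build GRCm38 *Sele* (chromosome 1, 164048234 to 164057677) and *Selp* (chromosome 1, 164115264 to 164150026) lie on the same strand, while *Thbd* (chromosome 2, 148404466 to 148408188) is a single exon beside *Cd93*. *Vwf* spans chromosome 6, 125546774 to 125686679, *Vcam1* chromosome 3, 116109949 to 116129688, *Icam1* chromosome 9, 21015985 to 21028817, *Icam2* chromosome 11, 106377656 to 106388075, *Procr* chromosome 2, 155751117 to 155755471, *Tfpi* chromosome 2, 84432855 to 84476775 and *F8* chromosome X, 75172715 to 75382615. Counting ignored strand, and transcripts of the opposite strand share 624 exonic bases with *Selp*, 511 with *Icam1* and 61 with *Vcam1*, so reads from those stretches cannot be told apart.

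Because *Sele*, *Selp*, *F8* and *Tfpi* were together higher in SEC, their promoters were searched for 4 motifs on both strands in the 250 bases before the start. RefSeq GRCm38.p6 windows were at hand for 6 of the 10 genes, and *Vwf*, *Icam2*, *Vcam1* and *Thbd* were without one. The NF-κB consensus was found in 0 of the 6 genes and in 3.90% of 32851 windows, GGAAG (the ETS core) in 6 and 64.1%, CACCC (a KLF motif) in 4 and 52.01%, and GATAA (GATA) in 2 and 22.6%. The motifs were common in promoters at large, except for NF-κB, and a match is a description of letters. The RefSeq start of *F8* lies inside the span given above, which is from GENCODE, so its window does not precede the longest annotated transcript. The 120 bases before each RefSeq start are shown with matches to any of the 4 motifs on either strand in capitals, for *Sele* (chr1:164048114-164048233, plus strand), *Selp* (chr1:164115144-164115263, plus), *F8* (chrX:75380042-75380161, minus) and the upstream start of *Tfpi* (chr2:84476760-84476879, minus).
Sele: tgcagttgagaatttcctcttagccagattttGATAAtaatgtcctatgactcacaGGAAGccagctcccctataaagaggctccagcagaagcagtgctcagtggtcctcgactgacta
Selp: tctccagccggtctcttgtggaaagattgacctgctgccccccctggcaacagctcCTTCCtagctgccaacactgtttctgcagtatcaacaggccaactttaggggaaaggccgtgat
F8: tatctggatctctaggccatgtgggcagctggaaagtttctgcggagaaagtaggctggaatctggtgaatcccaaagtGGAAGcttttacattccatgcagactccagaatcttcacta
Tfpi: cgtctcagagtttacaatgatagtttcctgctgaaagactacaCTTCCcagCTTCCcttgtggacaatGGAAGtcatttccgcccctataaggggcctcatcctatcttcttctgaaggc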

How the data were processed

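Single cells of 6 sorted populations at 2 ages were made into libraries by a modified Smart-Seq2 protocol without molecular identifiers. Per the submitters' processing notes, reads were aligned with GSNAP to GRCm38.p4 and counted with HTSeq, and the study names Ensembl release 81. The authors deposited raw counts per gene, counted without regard to strand, for 661 cells, after leaving out shallow cells and cells rich in mitochondrial reads. Depth ran from 58034 to 1503374 counts per cell.

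Here 270 repeated symbols were summed, 37 mitochondrial genes were left out of library sizes, and counts were summed per population and age. AEC were set against SEC at each age, and old cells against young cells in AEC, SEC, MSC-L and the AEC-like and SEC-like clusters given in the labels. Each group pools cells of several mice that the labels do not tell apart, so it was treated as 1 sample and no test was made. A gene was compared at 100 counts or more in at least 5 cells, on the log2 scale of CPM with a pseudocount of 1 CPM. Intervals are 95% exact Poisson for levels, Clopper-Pearson for shares and conditional binomial for ratios, and 0 counts were read as a limit of 3 counts.

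The alternatives tried were the mean CPM of single cells, size factors from genes found in 50% of cells, thinning to 100000 counts, another pseudocount and filter, single library-number ranges, and leaving out the highest cell, cells with blood, platelet or mesenchymal markers, or clusters E1 and E2. Doublets were not called. Levels between genes were set per kilobase of merged exons. The members and lists were chosen with earlier results of these data known. Genes named are the members, the markers, up to 3 genes of each list and direction with the largest ratio of AEC to SEC (at least 2-fold at both ages and in the same direction in range 3), and the 3 genes most correlated with each member among those with at least 1000 counts. Figures were drawn with matplotlib 3.10.9, intervals came from scipy 1.17.1, tables were handled with pandas 2.3.3 and numpy 2.4.6 under Python 3.11.15, and scripts were tested on simulated data.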

Additional observations from a re-analysis of the deposited data

Results flagged for a closer look

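In 4 of the 10 genes the old cells were at least 2-fold above the young cells in one sorted population and at least 2-fold below them in another, among populations with enough counts, beside 24.8% of 14751 genes tested in the same way. For *Vcam1*, mOPr held 54.4 CPM in young and 784 CPM in old cells (log2 ratio 3.82), whereas AEC held 235 and 92.9 CPM (-1.33), a difference of 5.16. For *Procr*, MSC-S held 189.9 CPM in young and 398 CPM in old cells (log2 ratio 1.06), whereas mOPr held 53.1 and 0.481 CPM (-5.19), a difference of 6.26. For *F8*, MSC-L held 2.59 CPM in young and 18.2 CPM in old cells (log2 ratio 2.42), whereas OPr held 37.7 and 7.58 CPM (-2.17), a difference of 4.59. For *Tfpi*, OPr held 0.0682 CPM in young and 19.2 CPM in old cells (log2 ratio 4.24), whereas AEC held 248 and 103 CPM (-1.26), a difference of 5.50. These differences were not tested, since each population at each age pools cells of mice that the labels do not tell apart and was treated as 1 sample. *Tfpi* in OPr, *Procr* in mOPr and *F8* in MSC-L had enough counts only through the age where they were high. For *F8*, young MSC-L held 59 counts and old MSC-L 355. Young OPr of M3 to M5 held 2 *Tfpi* counts, and old mOPr of M1 and M2 held 6 *Procr* counts. Those ratios, their differences and the count of 4 are therefore not exact. Single cells weighed heavily: 1 young OPr held 81.3% of that group's *F8* counts and 1 old OPr 100%, 1 old OPr held 76.6% of its *Tfpi* counts, and 1 young mOPr 81.6% of its *Vcam1* counts. For *Vcam1* in AEC, 1 young cell held 42.03% of counts. That log2 ratio was -0.83 without the highest cell of each group and -0.71 with size factors. In range 2 alone *F8* in OPr was 0.11 and *Procr* in MSC-S 0.99, both short of 2-fold. Clusters differed too. Of 26 mOPr at each age, 2 young and 14 old cells lay in the MSC-L-like clusters M1 and M2, and 16 young and 0 old cells in the MSC-S-like clusters M6 to M16, while *Lepr* was 144 CPM in young and 1047 CPM in old mOPr. In OPr the 10 mesenchymal markers summed to 14940.3 CPM in young and 23815 CPM in old cells (*Cxcl12* the most abundant), and the 15 blood cell markers to 9.10 and 9923 CPM, with *S100a9* the most abundant in old OPr. For MSC-S, the study reports cluster M9 as made up of old cells alone, and the mix of MSC-S clusters at each age is not given here. The part of these cluster and marker shifts was not tested.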

How the results depend on the processing

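Of 76 counts of genes past 2-fold under alternatives, 69 were within 1.5 times the reported count. In old against young AEC the count was 4, and 2 with the mean CPM of single cells, 2 with size factors (from genes found in 50% of cells, a limit set after seeing the data) and 2 with cells thinned to 100000 counts. In old against young SEC it was 1, and 2 after thinning and 0 without cells with 3 of 10 platelet markers. In old against young SEC-like cells it was 1, and 0 without the highest cell of each group. In old AEC against old SEC it was 7, and 6 with size factors (without *Vwf*), and 8 after thinning, 8 in range 3 and 8 without cells carrying any platelet marker (each with *Procr*). In old against young MSC-L it was 2, and 5 with no filter on low genes. Of 760 single log2 ratios, 307 stayed within the counting interval, 446 moved beyond it, and 7 that had been past 2-fold took the opposite sign. Of the other ratios, 43 under 2-fold or with too few counts also changed sign. The 7 were *Icam1* in young AEC over SEC (-0.13 in range 3), *F8* (0.41 in range 2) and *Procr* (1.13 in range 3) in old over young AEC, *Vwf* in old over young SEC (-1.49 without cells carrying any platelet marker, chosen after seeing the data), and *Selp* (2.19), *Sele* (5.79) and *Vcam1* (3.23) in old over young AEC-like cells of range 3. Among the AEC-like cells of range 3, the young were all sorted as AEC, whereas the old included cells sorted as SEC. The cause of these changes of sign was not tested. Of 120 shares of cells, 7 lay outside their interval when read as 1 count after thinning. Leaving out clusters E1 and E2 was also chosen after seeing the data. SEC lie in range 3 alone and MSC-L in ranges 1 and 2, so other ranges gave no value, and settings that left out no cell gave no separate value. No paired analysis was possible because no label names a mouse and cell numbers pair no young cell with an old cell, though young and old AEC, and MSC-L, were also set side by side within each range. Differences between mice cannot be told apart from age at this design, and low counts limit *Selp*, *Sele*, *Icam2* and *Procr* in MSC-L.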

Other observations

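In young AEC-like cells, *F8* was carried by 8 of 50 cells, and each of these also carried *Tfpi* (Spearman rho over cells 0.56), although both genes are mainly genes of SEC. Among 69 old AEC-like cells, 7 carried both genes and 2 carried *F8* without *Tfpi* (rho 0.32). In young SEC-like cells, *Selp* was carried by all 61 cells and *Sele* by 59, so the overlap of 59 follows from those shares. The rho between their levels was 0.26. Cells share depth and library range, and these values are descriptions.

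The cells of cluster E1, which the study names doublets, held 1106 CPM of *Sele*, 1827 of *Tfpi* and 2298 of *Vcam1* over 14 cells. In E2, named pericytes, *Procr* was 248.7 CPM over 8 cells, the highest of the 7 endothelial clusters, and *Sele*, *Selp* and *F8* were 0.577, 0.577 and 1.44 CPM.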
